A study of Drosophila melanogaster with 12 samples.

Results

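RNA sequencing of *Drosophila melanogaster* larvae was searched for transcripts that were put together from the reads and that were listed in *ISWI* mutants and not, or hardly, in controls. ISWI is the ATPase of several chromatin remodeling complexes, which slide and space nucleosomes along DNA, and flies without it are known for a male X chromosome that loses its normal compact shape. An assembled transcript is a model: StringTie builds it from the spliced reads of the libraries, gives it a locus name and a transcript number (MSTRG.locus.transcript), and divides the reads of the locus among all models that overlap. A locus can hold a single model or many models that share exons, so that the reads of 1 model and of its neighbors are not independent measurements.

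Of 5969 assembled transcripts in a table of 41081 transcripts, 91 (1.52%) were selected on their measured values, and they are called members here. A member had a normalized count of at most 3 in each of the 6 control libraries and of at least 10 in each of the 6 mutant libraries, and 1 other assembled locus was left out by the rule. The selection used the contrast of mutant and control, so the levels of the members in these groups are a description without a test. The members came from 63 (2.69%) of 2342 assembled loci.

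RNA came from whole larvae of the third instar in 4 groups with 3 libraries each, and each library was a pool of larvae. Control females and control males had the genotype +/+ and were wild type. Mutant females and mutant males had the genotype Iswi1/Iswi2, with an allele of *ISWI* on each copy of chromosome 2, in a *y w* background, and were picked as larvae without GFP from crosses of stocks that carry a CyO·GFP balancer. Strain background and genotype changed together, so their parts cannot be told apart. The labels name no treatment and no allele in the controls, and all stocks were kept at the same temperature. In whole larvae, fewer cells of a type and less RNA per cell cannot be told apart.

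The depth was between 89290368 and 119202607 reads per library, recovered from the normalized counts with size factors between 0.798 and 1.59. The share of transcripts listed at 0 was between 8.46% and 21.0%, lowest in the second library of mutant males. Replicates of a group differed in which assembled model received reads: 1042 assembled transcripts (17.5%) were listed at 0 in 1 library of a group beside at least 100 in both other libraries, compared with 1310 (4.19%) of the known transcripts. For this reason a member is described as listed at 0, and no fold change against control is given for it. Known transcripts carry identifiers that were not linked to genes here, so the level of *ISWI* itself and markers of larval tissues were not analyzed. Positions, neighboring genes and coding classes of the members were not analyzed here either. For the same reason, a locus below stands for its assembled transcripts only: known transcripts at the same place share reads with them and are missing from every share, every locus sum and every statement that a transcript is alone in its locus. A locus sum that includes members is raised in mutants by the way the members were selected, so it is a description, and the sum of the other transcripts is given beside it.

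The members were listed at 0 in all 6 control libraries in 85 of 91 cases. The other 6 had a few reads in controls: MSTRG.6687.1 had 6 reads over the 6 libraries, MSTRG.17540.7 had 5, MSTRG.207.1 had 4, MSTRG.11895.7 had 3, MSTRG.13101.1 had 2 and MSTRG.6256.4 had 1. The highest control value of any member was 2.51. In mutants, the mean normalized count over the 6 libraries was 21.3 for the lowest member, 616 for the median member and 22563 for the highest. It was below 100 for 9 members, from 100 to 1000 for 50, from 1000 to 10000 for 28, and higher still for 4. Most members were therefore far from both thresholds.

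**Figure D1:**
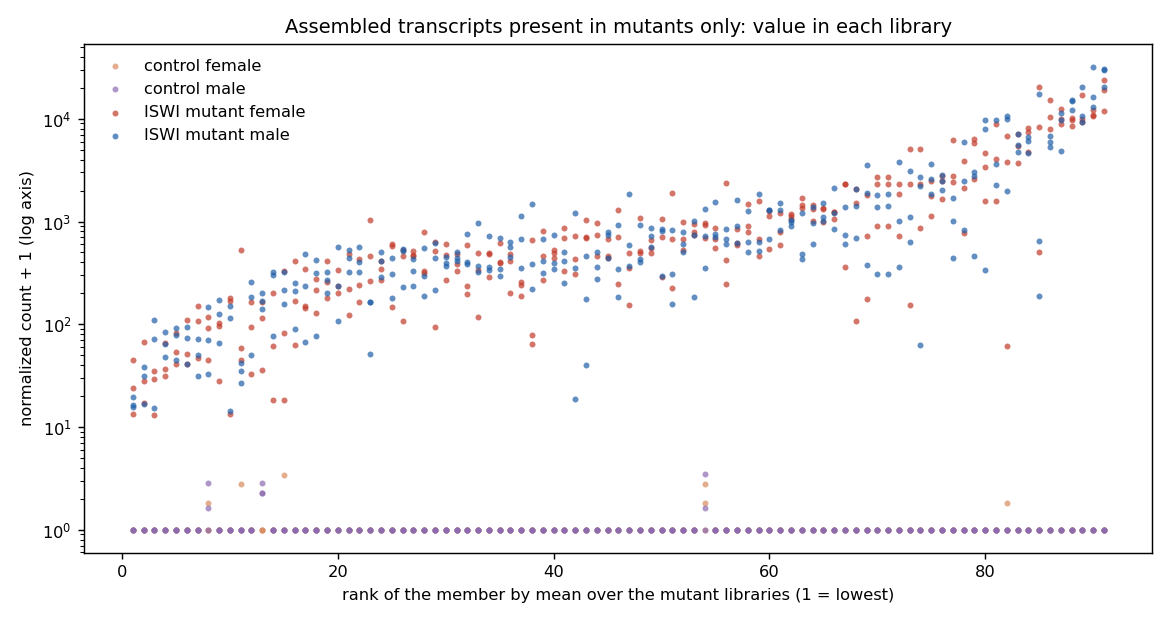
Normalized count + 1 of the 91 members in each of the 12 libraries (log axis), with the members ordered by their mean over the mutant libraries; each point is 1 library, and a value of 0 is drawn at 1. Control points lie at the bottom with a highest value of 2.51, and mutant means run from 21.3 to 22563.

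The members nearest to the control threshold on the inside were MSTRG.6687.1 with a highest control value of 2.51, MSTRG.11895.7 with 2.43 and MSTRG.207.1 with 1.88. The transcripts just outside were MSTRG.9444.1 and MSTRG.6079.20, both with 3.14, and MSTRG.6185.3 with 3.57. The last of these had between 1900 and 3025 in mutant libraries and belongs to the locus of the most abundant member. At the mutant threshold, the lowest values inside were 12.2 for MSTRG.14367.29 and 12.3 for both MSTRG.15228.1 and MSTRG.3529.1. Just outside were MSTRG.9706.2 with 8.97, MSTRG.12295.1 with 7.90 and MSTRG.11460.1 with 7.85. Some transcripts thus lay close to each threshold on both sides, and those named here were picked as the nearest.

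MSTRG.6185.6 was the most abundant member. Its normalized count was 23805, 18929 and 11883 in the mutant female libraries and 30578, 20437 and 29744 in the mutant male libraries, and it was listed at 0 in every control library. The means were 18206 ± 5993 (SD, n = 3) in females and 26920 ± 5630 in males, and the sexes overlapped. This transcript held 83.9% ± 7.74 (SD, n = 6) of the summed count of the 6 assembled transcripts of its locus in mutants. The 5 other transcripts of the locus summed to 151, 251 and 1939 in control and 3258, 2654 and 3881 in mutant female libraries. In males they summed to 159, 71.7 and 268 in controls and to 3558, 7711 and 3327 in mutants. The other transcripts were therefore higher in all mutant libraries than in all control libraries, at 4.18 times the control mean in females and 29.2 times in males. The third control female library, at 1939, stood above the other control libraries, and without it the ratio in females was 16.2.

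MSTRG.5610 was the locus with the most members, 7 of its 50 assembled transcripts. These 7 made up 35.3% of the summed count of all members in mutants, and together with MSTRG.6185.6 they made up 48.2%. MSTRG.5610.24 had 12144, 10821 and 10645 in mutant females and 12974, 31850 and 16337 in mutant males. The second male library was the highest, and no male library was as low as any female library. MSTRG.5610.23 had 9280, 10003 and 17123 in females and 10588, 20229 and 9277 in males. MSTRG.5610.33 had 10284, 8507 and 9729 in females and 14846, 12056 and 15118 in males. MSTRG.5610.33 was higher in each male library than in each female library, whereas MSTRG.5610.23 overlapped between the sexes. MSTRG.5610.32 had 12323, 8847 and 9922 in females and 4871, 9733 and 11465 in males. MSTRG.5610.44 had 7882, 10298 and 15068 in females and 6769, 5352 and 5988 in males, with every male library below every female library. Transcripts of the same locus therefore lay in opposite orders between the sexes, and none of these differences passed the test given below.

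The remaining members of the locus were less abundant. MSTRG.5610.11 had 2700, 895 and 2313 in females and 309, 1861 and 1408 in males, and MSTRG.5610.6 had 2709, 909 and 2337 in females and 309, 1821 and 1379 in males. These values differed by at most 2.2% in any mutant library, so the pair was close to a single measurement. Among the 54 pairs of members that share a locus, this was the only 1 with values within 10% of each other in all 6 libraries. The next closest pair, MSTRG.1336.4 and MSTRG.1336.5, differed by up to 16.0%.

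The 43 other transcripts of MSTRG.5610 had a lower mean sum in mutants. In females their sum was 68941 ± 4062 (SD, n = 3) in controls and 41126 ± 6581 in mutants, and the groups did not overlap. In males it was 64009 ± 10463 in controls and 36682 ± 15373 in mutants, where the second mutant library reached into the control range. The mean sum of these transcripts over both sexes was lower by 27571 in mutants, while the members stood at 61546 ± 12254 (SD, n = 6). The sum of all assembled transcripts, members included, was 1.44 times the control mean in females and 1.59 times in males. The members held between 52.4% and 67.5% of the locus in each mutant library. Among the other transcripts, MSTRG.5610.29 had the highest control mean, 6897, and its mutant mean was 2463.

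The locus MSTRG.1336 had 4 members of 11 transcripts. MSTRG.1336.6 had 1004, 1314 and 1439 in mutant females and 1370, 602 and 958 in mutant males. MSTRG.1336.3 had 791, 913 and 1491 in females and 1279, 505 and 627 in males. MSTRG.1336.4 had 546, 871 and 680 in females and 1542, 700 and 761 in males. All of them overlapped between the sexes, as did MSTRG.1336.5 with 593, 850 and 618 in females and 1605, 612 and 906 in males. In males, the first library was the highest for all 4. The other transcripts of females summed to 5235 ± 1334 in controls and 6548 ± 1274 in mutants (SD, n = 3). Those of males summed to 4379 ± 778 in controls and 6963 ± 1350 in mutants. They were higher in every mutant male library than in every control male library, and overlapped in females. Their sum was 1.25 times the control mean in females and 1.59 times in males, and with the members it was 1.96 and 2.46 times. MSTRG.1336.8, the other transcript with the highest control mean, had 1283 in controls and 941 in mutants.

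The locus MSTRG.11471 had 4 members of 18 transcripts, each with a small share of the locus. MSTRG.11471.30 had 676, 1596 and 465 in mutant females and 634, 512 and 1871 in mutant males. MSTRG.11471.2 had 678, 1900 and 227 in females and 156, 827 and 306 in males, a range of 12.2 times over the 6 libraries. MSTRG.11471.34 was steadier, with 411, 271 and 341 in females and 289, 508 and 416 in males. MSTRG.11471.29 had 687, 326 and 866 in females and 502, 412 and 250 in males. The members held 18.3% of the locus on average. The other transcripts of females summed to 8560 ± 548 in controls and 11597 ± 860 in mutants, without overlap. Those of males summed to 7970 ± 915 in controls and 10901 ± 2812 in mutants, with overlap. Its most abundant other transcript in controls, MSTRG.11471.17, had a control mean of 2266 and a mutant mean of 3101.

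The locus MSTRG.8281 had 4 members of 12 transcripts and overlapped between mutants and controls in its sum. MSTRG.8281.11 had 525, 493 and 444 in mutant females and 346, 743 and 392 in mutant males. MSTRG.8281.2 had 481, 202 and 408 in females and 570, 634 and 445 in males. MSTRG.8281.10 had 608, 267.3 and 472 in females and 451, 390 and 369 in males, and MSTRG.8281.5 had 202, 234 and 340 in females and 107, 558 and 236 in males. The sexes overlapped for all 4. The other transcripts of females summed to 4570 ± 512 in controls and 3747 ± 827 in mutants. Those of males summed to 4845 ± 1131 in controls and 3573 ± 1680 in mutants. With the members added, the sum was 1.16 and 1.10 times the control mean in females and males, and the mutant and control libraries overlapped in both sexes. Without the second mutant male library, the ratio in males was 0.838. Its most abundant other transcript in controls, MSTRG.8281.6, had a control mean of 1066 and a mutant mean of 807.

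**Figure D2:**
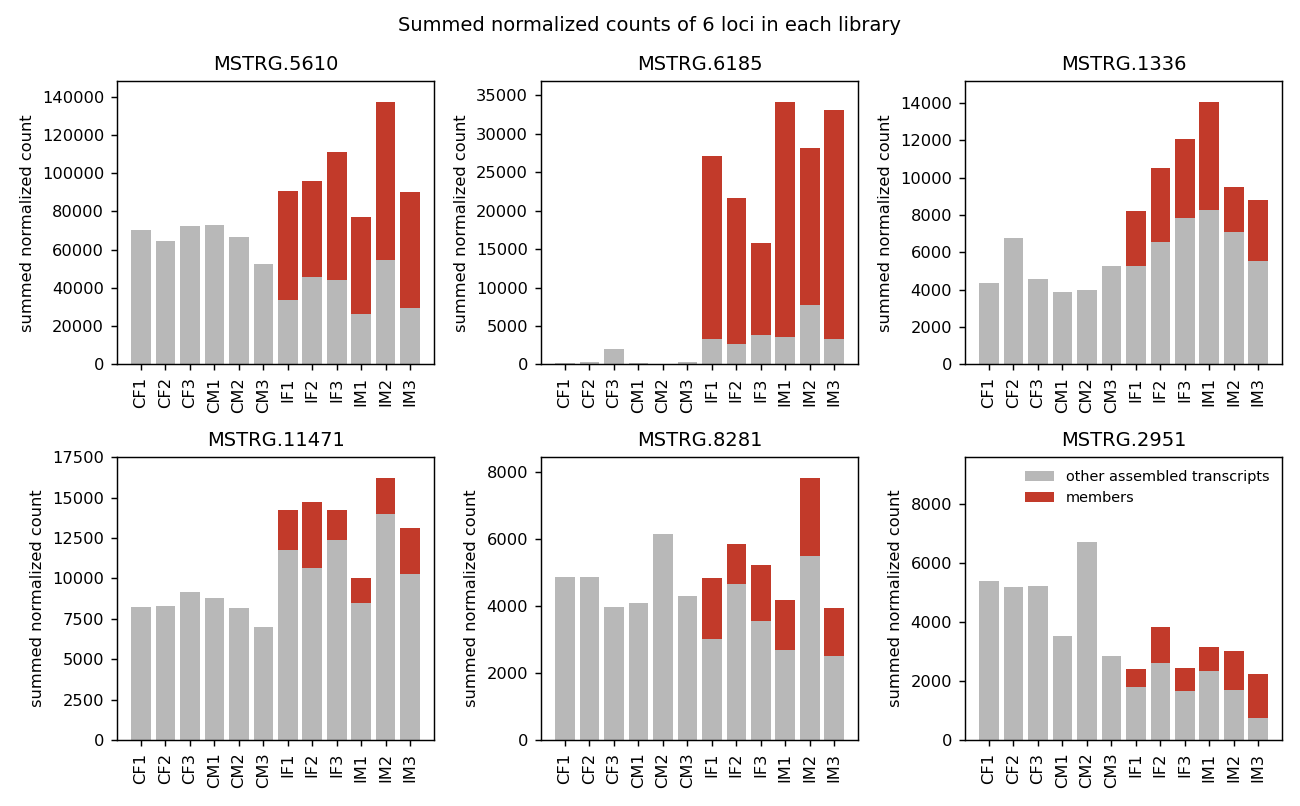
Summed normalized count of 6 loci in each library, split into members (red) and other assembled transcripts (gray); CF and CM are control females and males, IF and IM are mutant females and males, and each bar is 1 library. In MSTRG.6185 both parts are larger in mutants, and in MSTRG.5610 the gray part is smaller in most mutant libraries. In MSTRG.2951 the bars with members included are lower in mutants than in controls in females and overlap in males.

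Most members did not stand alone in their locus. There were 17 loci with a single assembled transcript and 2 loci, MSTRG.355 and MSTRG.2629, with no transcript other than members, and these held 21 members. The other 44 loci held 70 members and 339 other assembled transcripts. The median member locus had 3 assembled transcripts, compared with 1 over all assembled loci, and 27.0% of member loci had a single transcript, compared with 55.4% of all loci. The largest member locus had 67. A locus with more transcripts has more chances to hold a member, so this difference by locus is not read as a trait of the members. The 21 members without others had mutant means of 21.3 to 7902 with a median of 445. The 70 members with others had 44.7 to 22563 with a median of 758.

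The share of the locus that a member held was measured in each mutant library and averaged. Over the 70 members with others, the median share was 13.6%, with a range from 0.296% to 97.3%. A share over 50% was seen for 11 members and a share under 10% for 27. All members of a locus together held a median of 36.9%. At the upper end was MSTRG.15523.5 with 97.3% ± 2.11 (SD, n = 6), and it had 5402, 3703 and 7171 in mutant females and 5500, 4769 and 7063 in mutant males. The locus had 1 transcript that was not a member, and the order was reversed for it: MSTRG.15523.2 had 138, 201 and 96.2 in control females and 105, 57.8 and 0 in control males, and it was listed at 0 in all 6 mutant libraries. MSTRG.6687.1 held 87.2% ± 31.3 and MSTRG.1077.6 held 86.8% ± 4.27, followed by MSTRG.6185.6. MSTRG.355.1 held 84.3% ± 8.51 of a locus that consists of members only, so it is not among the 70. The wide spread of MSTRG.6687.1 comes from the first male library, where MSTRG.6687.2 had 1163 and was listed at 0 in every other library. In MSTRG.1077 every other transcript was listed at 0 in controls, and MSTRG.1077.5 was above 0 in 1 mutant library, at 149.

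At the lower end, the members were minor forms of abundant loci. MSTRG.6079.16 held 0.296% of its locus, with 64.4, 35.6 and 30.3 in mutant females and 47.4, 62.7 and 82.5 in mutant males. MSTRG.14367.29 held 0.622%, MSTRG.3529.1 held 0.953% and MSTRG.7571.2 held 1.14%. MSTRG.7571 had 67 transcripts, and its most abundant other transcript, MSTRG.7571.10, had a mean of 36025 in controls and 38415 in mutants. In the locus of MSTRG.14367.29, the other transcript MSTRG.14367.20 had 1595 in controls and 1121 in mutants, and in that of MSTRG.3529.1, MSTRG.3529.17 had 754 and 2252. In the locus of MSTRG.6079.16, MSTRG.6079.25 was listed at 0 in 2 control female libraries and 4 mutant libraries and had between 3475 and 9911 in the others. Beside this member, an abundant form was thus listed at 0 in some libraries of a group and at 3475 or more in others.

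The sum of the other assembled transcripts shows whether the rest of a member locus moved as well. In females, all 3 mutant libraries were above all 3 control libraries in 17 of the 44 loci (38.6%), compared with 17.4% of the 2092 assembled loci without members, and all were below in 12 (27.3%), compared with 20.7%. In males, the mutants were above in 20 loci (45.5%), compared with 18.2%, and below in 4 (9.09%), compared with 15.3%. The member loci also had more transcripts than other loci, and the reads of members and other transcripts are divided by the same step, so these counts are a description. The number of loci below in males rested on single libraries: it was 9 without the second mutant male library, 7 without the third control male library and 4 to 6 without any other male library. In 15 loci the other transcripts were above in both sexes, and in 3 they were below in both sexes. The share in both sexes was not computed for the loci without members. Whether 15 or 3 of the 44 loci is unusual was not tested.

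The loci in which the other transcripts were higher include some that were close to absent from controls, chosen here after their values were seen, apart from MSTRG.5701. MSTRG.5701.1 is a member with 8057, 4795 and 7443 in mutant females and 4603, 6604 and 6047 in mutant males. The other transcript of its locus was listed at 0 in 5 control libraries and at 355 in the second control male library, and it had 4770 ± 1126 (SD, n = 3) in mutant females and 5408 ± 991 in mutant males. In MSTRG.12723 the other transcripts summed to 12.8 ± 5.75 in controls and 1140 ± 193 in mutants among females, and to 29.4 ± 28.2 and 1005 ± 509 among males. In MSTRG.8910 the other transcript of females had 37.0 ± 34.4 in controls and 1897 ± 173 in mutants, and in males it was listed at 0 in controls and had 1691 ± 535 in mutants. In these loci both the members and the other transcripts were listed at higher levels in mutants.

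The loci with other transcripts lower in both sexes were MSTRG.2951, MSTRG.12979 and MSTRG.5656. In MSTRG.2951 the other transcripts of females had 5274 ± 114 in controls and 2030 ± 514 in mutants, and those of males had 4363 ± 2068 and 1591 ± 796. With its member MSTRG.2951.3, which had a mutant mean of 1037 ± 350 (SD, n = 6), the sum was 0.549 times the control mean in females, without overlap, and 0.642 times in males, with overlap. Leaving out the second control male library moved this ratio in males to 0.879. The sum with members was 0.588 and 0.876 times in MSTRG.12979, where the libraries overlapped in males, and 0.852 and 0.874 times in MSTRG.5656, where they overlapped in both sexes. Without the second control male library the last of these ratios was 1.05. Over the 44 loci, the sum with members was below control without overlap in 4 loci (9.09%) in females and in 0 in males. It was so in 0 in both sexes. Among the 2092 assembled loci without members, the sum was below in 20.7% in females and 15.3% in males. Members can only raise the sum, so these shares are not a like comparison.

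For 43 of the 44 loci, the ratio of the summed assembled transcripts between mutant and control means over both sexes could be computed. In the other, MSTRG.1077, every transcript was listed at 0 in controls. The median ratio was 2.19, and it was below 1 in 8 loci, from 1 to 2 in 13, from 2 to 10 in 10 and at least 10 in 12. The total includes the members, which can only raise it. The ratio of the other transcripts alone had a median of 1.38. It was below 1 in 18 loci, of which 10 had a total at or above the control mean, and above 1 in 24, and in the other 2 loci, MSTRG.1077 and MSTRG.6687, these transcripts were listed at 0 in controls. In 20 loci the other transcripts were higher and the total was more than 2 times the control mean. These are counts of ratios of means, and some of the sums overlapped between mutant and control libraries. The other transcripts overlapped in 15 of the 44 loci in females and in 20 in males. Overlap was more frequent in the 2092 loci without members. Of these, only 17.4% were above and 20.7% below without overlap in females, and 18.2% and 15.3% in males.

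**Figure D3:**
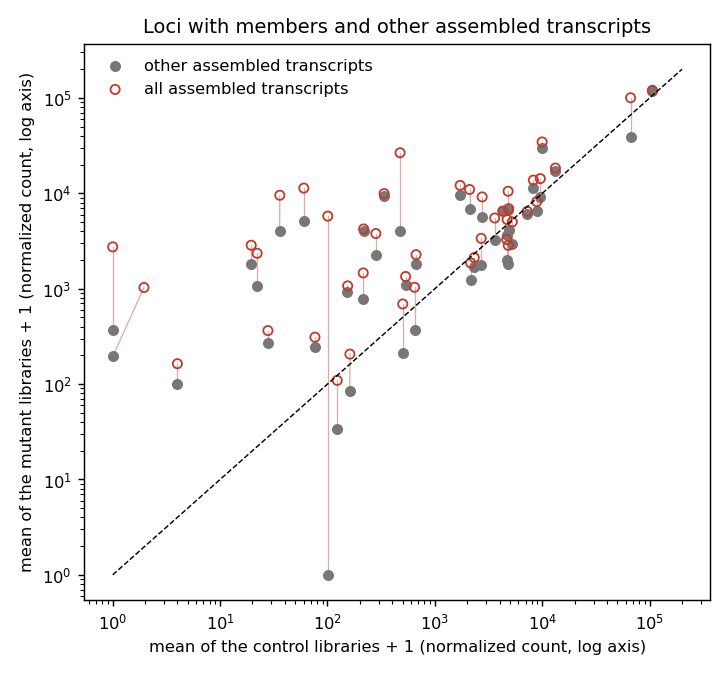
Mean normalized count + 1 over the 6 control libraries (x axis) and the 6 mutant libraries (y axis), both log axes, of the 44 loci that hold members and other assembled transcripts; filled points are the sum of the other transcripts, open circles the sum of all, a line joins both values of a locus, and the dashed line marks equal means. The other transcripts lie below equality in 18 loci, and the totals in 8 of 43.

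The other transcripts were also counted one by one, in a fit of limma over all 12 libraries with Benjamini-Hochberg adjustment over 35284 transcripts. Of the 339, 283 passed the filter on low counts. In females, 46 (16.3%) were called higher in mutants, compared with 7.12% of all transcripts, and 17 (6.01%) lower, compared with 5.68%. In males, 53 (18.7%) were called higher, compared with 7.11%, and 13 (4.59%) lower, compared with 9.12%. The median log2 difference was 0.44 in females and 0.47 in males, compared with 0.00 and -0.10 over all transcripts. Without 1 library of the sex, between 37 (13.1%) and 47 (16.6%) were called higher in females, compared with 4.69% to 5.68% of all transcripts. In males it was between 40 (14.1%) and 46 (16.3%), compared with 4.98% to 6.95%. Between 10 (3.53%) and 13 (4.59%) were called lower in females, compared with 3.05% to 4.55% of all transcripts. In males, 19 (6.71%) were called lower without the second mutant library, compared with 11.5% of all transcripts. Without any other male library it was between 8 (2.83%) and 10 (3.53%), compared with 5.12% to 6.01%. These transcripts share reads with the members, so they were not tested as a group.

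The sum of all members was similar over the mutant libraries. Of this sum, 48.2% came from MSTRG.6185.6 and the members of MSTRG.5610. The sum was 152913, 155780 and 195578 in mutant females and 164568, 183186 and 194167 in mutant males. As a share of all normalized counts it varied more, between 0.134% and 0.238%. The median member had 582, 527 and 607 in the female libraries and 502, 549 and 445 in the male libraries. No library held most of the extremes: a library was the lowest of the 6 for between 11 and 18 members and the highest for between 8 and 21. The second male library, which had the fewest transcripts at 0, was the highest for 21 members and the lowest for 15.

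Single members varied much more than their sum, which is a total over 91 values. The highest mutant library exceeded the lowest by 1.30 to 176 times, with a median of 4.15, and by more than 10 times in 20 members (22.0%). The 2785 other assembled transcripts with at least 10 in all 6 mutant libraries had a median of 3.84, and 18.3% of them exceeded 10 times. The difference between these sets was not tested.

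The steadiest member was MSTRG.2629.1, with 1131, 1170 and 1066 in mutant females and 1023, 897 and 995 in mutant males. Every male library was below every female library, by a small margin. MSTRG.9951.1, the sole transcript of its locus, had 389, 330 and 479 in females and 415, 504 and 441 in males. MSTRG.14816.8 had 981, 1325 and 1347 in females and 1094, 1517 and 1003 in males. Their highest library exceeded the lowest by 1.53 and 1.55 times.

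The members with the widest range differed strongly between pools of the same sex. MSTRG.6256.4 had 60.8, 3833 and 6795 in mutant females and 10015, 10684 and 1972 in mutant males. The assembled transcripts of its locus summed to 10069 ± 2192 (SD, n = 3) in females and 9024 ± 3305 in males. MSTRG.11977.2 had 498, 8357 and 20242 in females and 652, 187 and 17473 in males, a range of 108 times. It is the only assembled transcript of its locus, and known transcripts there were not analyzed. MSTRG.7309.19 had 858, 2295 and 5061 in females and 2694, 2230 and 61.3 in males, a range of 82.6 times. A mean over libraries says little about these 3 members.

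The comparison of mutant males with mutant females was not used to select the members, and it was tested with limma on log2(normalized count + 1) over all 30869 transcripts that reached a normalized count of 10 in 3 or more of the 6 mutant libraries. By the rule a member cannot be near 0 in any mutant library, which limits how far the sexes can differ, so members are also set beside the 2785 other assembled transcripts that share this minimum. No member was called at an adjusted p under 0.05 (0 of 91), where 1.04% of all transcripts were called. At such a share few calls would fall among 91 transcripts, so this 0 is not read as a result about the members. In a limma fit of the transcripts with at least 10 in all 6 mutant libraries, 0 of 22540 were called. On the recovered reads, DESeq2 also called 0 members, among 1373 transcripts called. The quasi-likelihood test of edgeR called 0 of all transcripts, so its 0 members say nothing particular about them. At an unadjusted p under 0.05 there were 7 members (7.69%) with limma, 8 with DESeq2 and 6 with edgeR. Of all 30869 transcripts, 3236 were under it with DESeq2 and 2401 with edgeR. The share with limma was 9.23% over all transcripts and 6.39% over the other assembled transcripts of the same minimum. The lowest adjusted p of a member was 0.33 in limma, 0.443 in edgeR and 0.0557 in DESeq2, the last just above the threshold. The p-values measure the spread between 3 pools of larvae of each sex.

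The log2 difference of males minus females ran from -2.43 to 2.35 over the members, with quartiles of -0.44, 0.04 and 0.50. Over the other assembled transcripts of the same minimum the quartiles were -0.39, 0.06 and 0.50. It was positive for 48 members and negative for 43, and it exceeded 1 in absolute value for 17 (18.7%), compared with 19.1% of the other assembled transcripts of the same minimum and 28.6% of all transcripts. The standard error of a member had a median of 0.64 and ran from 0.19 to 2.03, so 2 standard errors of the median member cover a doubling, a log2 difference of 1. The male and female libraries did not overlap for 11 members (12.1%), compared with 15.0% of all transcripts.

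**Figure D4:**
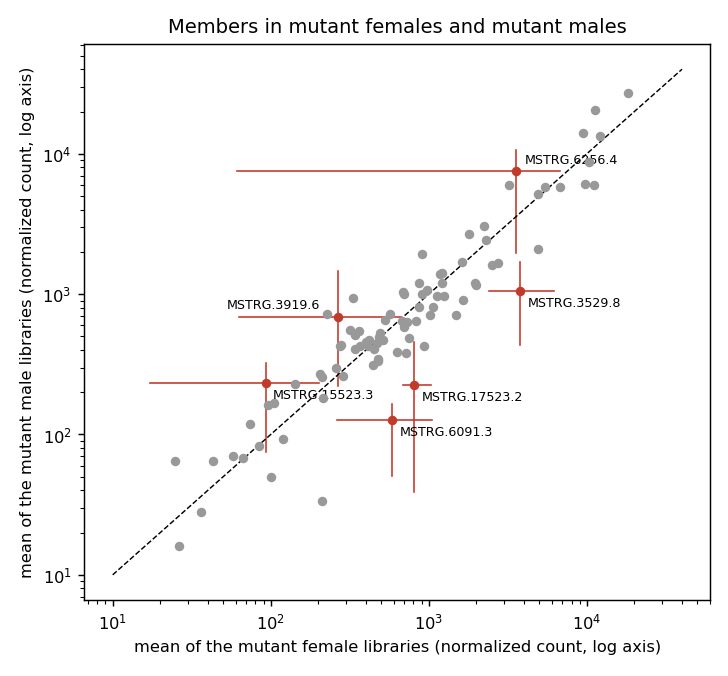
Mean normalized count of each member in the 3 mutant female libraries (x axis) and the 3 mutant male libraries (y axis), log axes, with equality as the dashed line; red points are the 3 members with the largest log2 difference in each direction, and their lines run from the lowest to the highest library. The points scatter on both sides of equality, with 48 positive and 43 negative log2 differences.

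The members with the largest differences are given as a description. MSTRG.17523.2, alone in its locus, had 1028, 690 and 710 in mutant females and 458, 176 and 38.9 in mutant males, a log2 difference of -2.43 (standard error 0.88, adjusted p = 0.44 in limma). MSTRG.6091.3, also alone, had 263, 1042 and 459 in females and 165, 164 and 50.7 in males, a log2 difference of -2.16 (standard error 0.72, adjusted p = 0.38 in limma). MSTRG.3529.8 had 6192, 2763 and 2410 in females and 1704, 436 and 1021 in males, a log2 difference of -1.92 (standard error 0.60, adjusted p = 0.33 in limma). In all 3, every male library was below every female library, yet none passed the test. Without the third male library, the log2 difference of MSTRG.17523.2 was -1.48. Over all alternatives run, the adjusted p was between 0.189 and 0.702 for MSTRG.17523.2, between 0.0615 and 0.678 for MSTRG.6091.3 and between 0.0854 and 0.605 for MSTRG.3529.8.

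In the other direction the sexes overlapped. MSTRG.6256.4 had a log2 difference of 2.35 with a standard error of 1.83, with 1 female library at 60.8 and the others at 3833 and 6795. MSTRG.3919.6 had 63.2, 664 and 77.4 in females and 1473, 384 and 220 in males, a log2 difference of 1.74 with a standard error of 1.12. MSTRG.15523.3, the second member of the locus of MSTRG.15523.5, had 60.8, 17.2 and 201 in females and 75.0, 298 and 324 in males, a log2 difference of 1.67 with a standard error of 1.05. These differences rested on single libraries. MSTRG.6256.4 had 0.22 without the first female library, 3.61 without the third female library, 1.06 in DESeq2 and 1.03 in edgeR. MSTRG.3919.6 had 0.96 without the first male library, 1.13 without the first female library and 2.82 without the second female library. MSTRG.15523.3 had 0.80 without the second female library and 2.54 without the third female library. The adjusted p of these 3 members was 0.81, 0.77 and 0.76 in limma, and over all alternatives it lay between 0.413 and 0.985.

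The thresholds were also applied with control and mutant exchanged, and to the other kinds of transcript. Of the 5933 assembled transcripts outside the locus left out by the rule, 82 (1.38%) had at least 10 in every control library and at most 3 in every mutant library, compared with 91 members (1.53%). They were listed at 0 in all mutant libraries in 75 cases, and their mean in controls ran from 52.3 to 4319 with a median of 393. Transcripts listed in controls only were thus found in similar number, and the shares were not tested against each other. These 82 transcripts came from 55 of the 2342 assembled loci. In 2 loci, MSTRG.5613 and MSTRG.1949, there was both a member and such a transcript. That is 3.17% of the 63 member loci and 3.64% of these 55 loci, and the overlap was not tested.

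Known transcripts and insertions of transposable elements (TE) met the thresholds in smaller shares. Among 31271 known transcripts, 24 (0.0767%) were in mutants only by these thresholds and 19 (0.0608%) in controls only. Of the 24, 14 were listed at 0 in all control libraries. Among 3840 TE insertions, 11 (0.286%) were in mutants only and 1 (0.0260%) in controls only. Of the 11, only G4{}2931 was listed at 0 in all control libraries, with a mutant mean of 64.2, whereas 85 of the 91 members were. The highest was Cr1a{}474 with a mutant mean of 637, followed by rooA{}3681 with 164 and invader6{}4869 with 110. The median mutant mean was 616 for the members, 157 for the 24 known transcripts and 48.2 for these insertions. These shares and levels were not tested between kinds of transcript.

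**Figure D5:**
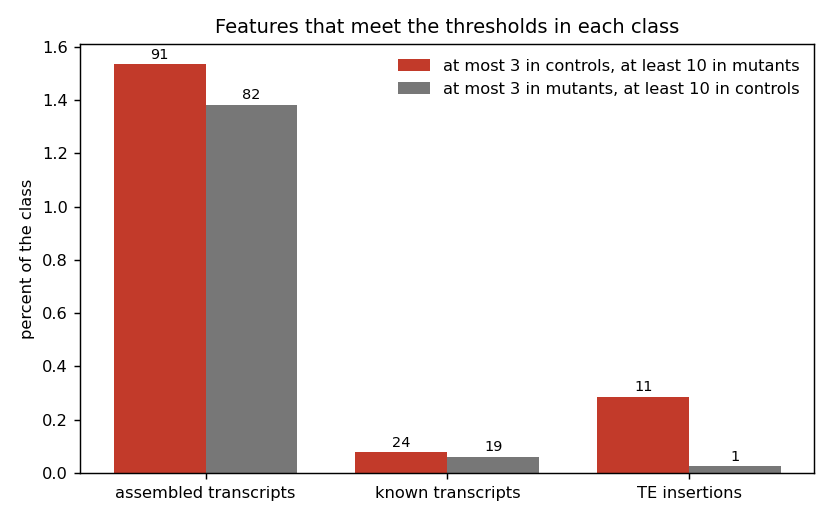
Percent of the assembled transcripts, known transcripts and TE insertions that have at most 3 in every control library and at least 10 in every mutant library (red), and the same with control and mutant exchanged (gray); the number of transcripts stands above each bar. Assembled transcripts show 91 and 82, known transcripts 24 and 19, and TE insertions 11 and 1.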

How the data were processed

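RNA of whole larvae was depleted of ribosomal RNA and sequenced in paired ends. The authors trimmed reads with Trimmomatic (0.39), mapped them with HISAT2 (2.2.1), assembled and quantified transcripts with StringTie (2.1.5), compared them with the annotation using gffcompare, kept assembled transcripts with several exons and a minimum length, and sorted them by coding potential and protein similarity. The genome build in the processing notes is BDGP6. The deposited values are a signal: read counts normalized by the authors in DESeq2 (1.32.0) with 1 size factor per library. Multiplied by the size factor, 100% of values no higher than 1000 reads were whole (within 0.01), and these reads were used for DESeq2 (1.42.0) and edgeR (4.0.16) as alternatives.

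Members and lists were chosen with earlier results of these data known. All 12 libraries were used, grouped by their labels. The main test was limma (3.58.1, R 4.3.3) with an intensity trend on log2(normalized count + 1) of the 6 mutant libraries, and the other transcripts of member loci were called in a fit of 4 group means over 12 libraries. An adjusted p under 0.05 was a call. Members named are the 8 with the highest mean, those of the 4 loci with most members, the 4 with the largest and smallest share, the 3 on each side of each threshold, the 3 with the largest and smallest range, and the 3 with the largest difference between sexes in each direction, with the other transcript of highest control mean in their loci. Other names were chosen after their values were seen. Scripts were tested on simulated data. Lists of tissue and sex markers were planned and not used, because transcript identifiers were not linked to genes here. Alternatives were other tools, normalization, pseudocounts (0.5 and 5), filters, thresholds, the replicate number as a block and leaving out each library.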

Additional observations from a re-analysis of the deposited data

How the results depend on the processing

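No alternative called a member between mutant males and mutant females. The lowest adjusted p of a member over these alternatives was 0.0557, in DESeq2. The 6 members described for their large differences were chosen for them, and 24 of their 90 alternative values equal the main one by construction. The other 66 kept the sign, but 4 of the 6 moved by over 1.5 times without 1 library: the log2 difference lay between 0.22 and 3.61 for MSTRG.6256.4, between 0.96 and 2.82 for MSTRG.3919.6, between 0.80 and 2.54 for MSTRG.15523.3 and between -3.24 and -1.48 for MSTRG.17523.2. The number of all transcripts called, 320, was not stable: it was 1075 with all 12 libraries in the fit, 1373 with DESeq2, 0 with edgeR and 0 with at least 10 in all mutant libraries. Without 1 mutant library it lay between 0 and 188: 0 without the third male library, 5 without the first, 65 without the second, 83 without the first female library, 113 without the second and 188 without the third. With edgeR, 2401 transcripts had an unadjusted p under 0.05, with the stricter filter 1461, with the replicate block 2752 and without the third male library 3197. TMM normalization (339), pseudocounts of 0.5 (300) and 5 (393) and no filter (296) changed it little. The causes were not tested.

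The replicate numbers stand for different pools of larvae. The deviations of libraries with the same number in males and females had correlations of -0.014, 0.00075 and 0.0073. Those of libraries with different numbers lay between -0.058 and 0.058. These values show no pairing by number. The labels do not say whether libraries of the same number were handled together. With the replicate number as a block, 0 transcripts and 0 members were called.

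The rule gave 85 members with a control ceiling of 0, 117 with a ceiling of 10 and 92 with a ceiling of 3 reads. With a mutant minimum of 5, 20 and 100 there were 95, 84 and 66, and without 1 library between 92 and 103. The median share of the locus was 13.4% from summed counts and between 13.2% and 15.1% without 1 mutant library. The orders and ratios of locus sums and the calls of other transcripts without each library were added after the data were seen.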
